A study of Mus musculus with 2 samples.

Results

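The miR-30 family of mice has 6 genes, Mir30a, Mir30b, Mir30c-1, Mir30c-2, Mir30d and Mir30e, which were picked by gene symbol and make up 6 of the 1973 microRNA (miRNA) gene rows of this series. All 6 had counts in both libraries. The series holds 2 small RNA libraries from adrenals of B6NCrl mice taken at postnatal day 0, size-selected for RNA below 30 nucleotides. Each library came from both adrenals of 1 pup, both pups came from 1 pregnancy, no treatment or genetic change is named, and the sex was not collected. The labels give both samples the same donor identifier but name separate pups, called pup 1 and pup 2 here. If the identifier meant a single animal, every spread given below would be technical.

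A miRNA is cut from a hairpin precursor, and either arm of the hairpin (5p or 3p) can leave a mature strand of about the same length. The mature strand guides a silencing complex to transcripts that pair with its seed, the bases 2 to 8, so genes with the same seed form a family with overlapping targets. The miR-30 family is found in many tissues and is abundant in kidney epithelium, where it is needed by podocytes, and its studied targets include Becn1, an autophagy gene, and Snai1, a transcription factor of epithelial-mesenchymal transition. In the mouse genome the family sits as pairs of hairpins at 3 loci.

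The mature sequences show why the family is treated as a unit and where its members part. RefSeq sequences on GRCm38.p6 (the assembly mm10) matched 4 of the 6 genes, Mir30a, Mir30c-1, Mir30c-2 and Mir30e. Their 5p strands are printed 5′ to 3′ with the seed in capitals.
miR-30a-5p: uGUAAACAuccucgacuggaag
miR-30e-5p: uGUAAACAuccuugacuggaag
miR-30c-5p: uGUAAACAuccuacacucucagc
The 3p strands from the other arm carry other seeds.
miR-30a-3p: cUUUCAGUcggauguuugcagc
miR-30e-3p: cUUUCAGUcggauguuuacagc
miR-30c-1-3p: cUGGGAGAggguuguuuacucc
miR-30c-2-3p: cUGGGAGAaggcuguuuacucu
The first 12 bases were identical in the 3 5p sequences. Counted from 1 at the 5′ end, miR-30e-5p differed from miR-30a-5p by C13U alone, so that 21 of 22 positions were identical. By contrast, miR-30c-5p differed from miR-30a-5p at 5 of 22 positions, by C13A, G14C, G18C, G19U and A20C. On the 3p side, miR-30a-3p and miR-30e-3p differed by G18A, and miR-30c-1-3p and miR-30c-2-3p by G9A, U12C and C22U.

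The 5p sequence of miR-30c is encoded in both miR-30c hairpins, which matters for how their reads were counted. The hairpins are printed with that sequence in capitals.
Mir30c-1: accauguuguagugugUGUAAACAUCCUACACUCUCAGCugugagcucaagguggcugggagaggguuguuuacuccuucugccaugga
Mir30c-2: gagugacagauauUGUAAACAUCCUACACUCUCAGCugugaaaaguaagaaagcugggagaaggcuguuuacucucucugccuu
A read of exactly the 23 bases in capitals matches both hairpins, whereas each of the other printed mature sequences was found in 1 hairpin of the RefSeq table. The deposited tables keep multi-mapped reads in a row of their own, which held 34.9% of all reads in pup 1 and 32.2% in pup 2. The counts of Mir30c-1 and Mir30c-2 therefore leave out reads that fit both, and they are lower limits of the reads from these hairpins. The tables count reads per hairpin gene, so the 5p and 3p strands cannot be told apart in any value below.

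The seed GUAAACA was present in 5 of the 1738 mature miRNA entries of the RefSeq table, or 0.288%. That table lacks Mir30b and Mir30d and lists miR-30c-5p once for each of its hairpins, so the share does not cover the whole family. The table's gene with this seed that is not named as a miR-30 gene was Mir384, on chromosome X, a miRNA studied mainly in brain. By its seed alone it would be grouped with the miR-30 genes.
miR-384-5p: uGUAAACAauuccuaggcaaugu
Mir384 had 27.4 CPM in pup 1 and 21.9 CPM in pup 2 (31 and 73 counts), which placed it below each of the 6 miR-30 genes in both pups. CPM are a gene's reads that map to its strand, scaled to a sum of 1000000 over all miRNA genes of the library. The 3p seed UUUCAGU was found in no other gene of that table than Mir30a and Mir30e. The seed UGGGAGA was also found in Mir6958, which had 2 counts in pup 1 and 1 in pup 2.

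The libraries held 1131762 and 3327743 same-strand gene counts in pup 1 and pup 2, so values of pup 2 carry less counting error. Mir375, a miRNA of neuroendocrine cells such as the chromaffin cells of the adrenal medulla, reached 37586 and 30415 CPM, and the tables hold no messenger RNA with which the steroid-producing cortex could be checked. Intervals given below are exact 95% intervals that cover counting error only, with each read taken as independent. They leave out the spread between animals and between libraries. The reads carry no molecular identifiers and PCR copies were counted as reads, so the intervals may be too narrow even for counting error. No p-value was computed, as each pup gave a single library. SDs are over n = 2 pups, which measure only the spread between these 2 samples.

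Together the 6 genes took 1.94% of the counts in pup 1 (interval 1.91 to 1.96). In pup 2 they took 2.32% (2.31 to 2.34), for a mean of 2.13% ± 0.274 (SD, n = 2). By these counts the family level was 1.20-fold higher in pup 2 (interval 1.18 to 1.22). In bulk tissue a difference in the number of cells of a type and one in the RNA per cell cannot be told apart. By counted reads the family fell into a high and a low set that were far apart in both libraries. Reads that fit both Mir30c hairpins are not counted, so the place of miR-30c in the low set holds for counted reads only. Mir30e, Mir30d and Mir30a gave 98.8% of the family's counts in pup 1 and 99.3% in pup 2, while Mir30b, Mir30c-1 and Mir30c-2 gave 1.24% and 0.726%.

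**Figure D1:**
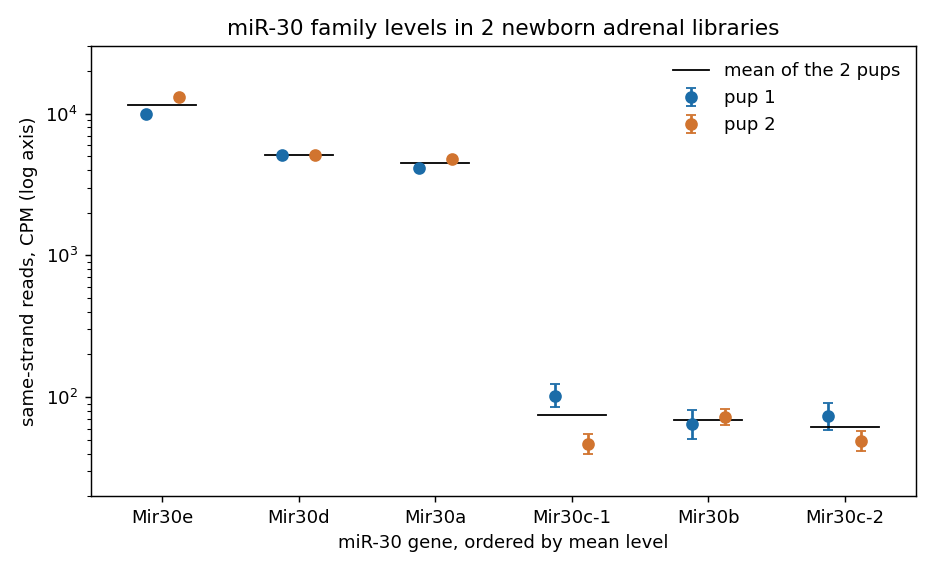
Level of each miR-30 gene in CPM (log axis) in pup 1 and pup 2, with exact 95% counting intervals as bars and the mean as a line. Mir30e, Mir30d and Mir30a lie between 4107 and 13131 CPM, and the other 3 genes lie between 46.9 and 102 CPM, with Mir30c-1 lower in pup 2.

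Mir30e was the most abundant member. It had 9938 CPM in pup 1 and 13131 CPM in pup 2 (11248 and 43697 counts), and ranked 26th and 20th among the 635 miRNA genes with a count in either library. It made up 51.4% of the family's counts in pup 1 and 56.5% in pup 2. Mir30d followed with 5066 and 5109 CPM (5733 and 17001 counts), or 5087 ± 30.6 CPM (SD, n = 2). Mir30a had 4107 and 4816 CPM (4648 and 16026 counts), or 4461 ± 501 CPM (SD, n = 2). These 3 genes had the same order in both pups and their ranges did not overlap. Mir30d exceeded Mir30a by only 1.23-fold in pup 1 (interval 1.19 to 1.28) and 1.06-fold in pup 2 (1.04 to 1.08), against 1.96-fold (1.90 to 2.03) and 2.57-fold (2.53 to 2.62) for Mir30e over Mir30d. The mature sequences given by RefSeq for Mir30a and Mir30e are 22 bases long, and a library read covers a whole mature strand, so levels were compared without a division by length.

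The low set was led by Mir30c-1, which was 40.1-fold below Mir30a in pup 1 (interval 33.3 to 48.6) and 103-fold below it in pup 2 (87.7 to 121). Mir30c-1 had 102 CPM in pup 1 and 46.9 CPM in pup 2 (116 and 156 counts). Mir30c-2 had 73.3 and 49.3 CPM (83 and 164 counts). Mir30b had 64.5 and 72.4 CPM (73 and 241 counts). Their order was not the same in the pups: Mir30c-1 was the highest of these genes in pup 1 and the lowest in pup 2. Mean levels of 74.7 ± 39.3 CPM for Mir30c-1, 68.5 ± 5.60 CPM for Mir30b and 61.3 ± 17.0 CPM for Mir30c-2 (SD, n = 2 each) differed by less than the largest SD among them, and the ranges of neighbours in this order overlapped. All 3 were nevertheless well above the level that 3 counts give, namely 2.65 CPM (pup 1) or 0.902 CPM (pup 2).

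The genes nearest in level were found by distance between log2(CPM + 1) values over the 2 libraries. Mir30e lay closest to Mir487b at 11235 and 12265 CPM. Mirlet7f-2, with 4361 and 4344 CPM, was the nearest gene to both Mir30a and Mir30d. Mir30b was closest to Mir92-2 (65.4 and 76.3 CPM), and Mir30c-2 to Mir3099 (73.3 and 50.8 CPM). The nearest gene to Mir30c-1 was Mir292 with 76.0 and 44.2 CPM, and its distance of 0.44 was the largest of the 6. Over 2 libraries such likeness describes level and little else.

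Between the littermates 4 of the 6 genes were higher in pup 2 and 2 were lower, and 1 of 6 passed 2-fold. The passing gene was Mir30c-1, 2.19-fold lower in pup 2 (interval 1.70 to 2.80), or -1.11 as a log2 ratio with 1 CPM added to each level. Among the 284 genes whose mean was 10 CPM or more, 5.28% passed 2-fold in either direction and 1.76% were at least 2-fold lower in pup 2. The median log2 ratio of the 6 members was 0.09, close to the 0.08 of all 284 genes. One gene of 6 is too few to set the family's share against that background.

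Each abundant member was equal or higher in pup 2. Mir30e was 1.32-fold higher (interval 1.29 to 1.35) and Mir30a 1.17-fold higher (1.13 to 1.21), while Mir30d, at 1.01-fold, had an interval that included no difference (0.979 to 1.04). These log2 ratios, 0.40, 0.23 and 0.01, lay inside the range of -0.68 to 0.81 that held the central 90% of the 284 genes (5th to 95th percentile). Mir30b was 1.12-fold higher with an interval from 0.861 to 1.48. Mir30c-2, the other copy of miR-30c, was 1.49-fold lower in pup 2 (1.13 to 1.95), a log2 ratio of -0.56, and did not pass 2-fold. The 2 copies of miR-30c together were 1.83-fold lower (1.52 to 2.19).

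**Figure D2:**
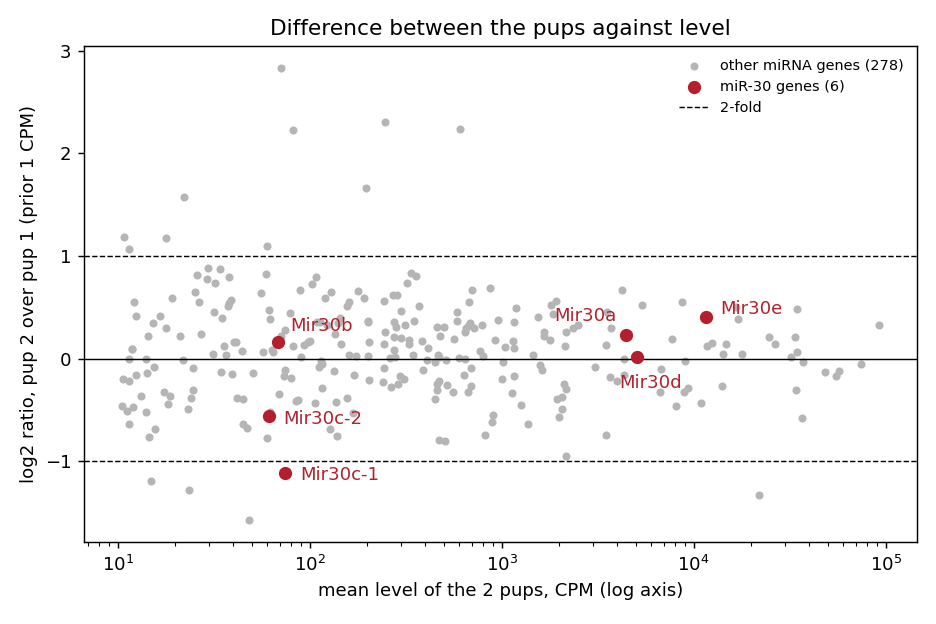
Log2 ratio of pup 2 over pup 1 against mean level in CPM (log axis) for 284 miRNA genes, with the 6 miR-30 genes in red and 2-fold as dashed lines. Mir30c-1 at -1.11 lies below the lower line, Mir30c-2 lies at -0.56, and the other 4 members lie between 0.01 and 0.40.

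The multi-mapped share and markers of several other tissues also differed between the libraries. Multi-mapped reads made up 34.9% of reads in pup 1, where the Mir30c copies were higher, and 32.2% in pup 2. In the list of 5 miRNAs of kidney, the neighbouring organ, Mir215 was lower in pup 2 with 72.5 and 23.7 CPM, and Mir194-1 with 13.3 and 2.70 CPM. Mir192, Mir204 and Mir194-2 were higher in pup 2, and the list summed to 293 CPM in pup 1 and to 352 CPM in pup 2, with none of the 5 at 0. Skeletal muscle Mir206 differed most among the markers with counts in both pups, with 82.2 and 411 CPM, 5.00-fold higher in pup 2 (interval 4.05 to 6.24). No count was given to 3 of the 5 measured muscle markers, Mir1a-1, Mir133a-1 and Mir133a-2. Their names mark them as copies of a miRNA with more than 1 gene, and reads that fit more than 1 gene were left out. A count of 0 therefore does not show that these miRNAs were absent. The remaining muscle marker, Mir133b, whose name gives no copy number, had 0 counts in pup 1 and 4 in pup 2 (1.20 CPM). Liver Mir122 was 1.37-fold higher in pup 2 (1.32 to 1.42) and endothelial Mir126a 1.25-fold (1.24 to 1.26). In the blood list, Mir144 was 1.89-fold higher (1.21 to 3.09), on 23 and 128 counts, and Mir223 1.25-fold (1.16 to 1.36). Mir451a, adjacent to Mir144 and also on that list, had 261 and 263 CPM on 295 and 874 counts. Its ratio was 1.01, with an interval that included no difference (0.882 to 1.15). The blood list summed to 985 and 1184 CPM. The 2 genes of the neuroendocrine list differed in opposite directions. Mir375 was lower in pup 2, at 0.809 of its level in pup 1 (0.800 to 0.818). Mir7-1, with 307 and 438 CPM, was 1.42-fold higher in pup 2 (1.27 to 1.61). The part of these differences in the miR-30 values was not tested.

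The gene pairs at the 3 loci were compared as ratios of counts within a library, which do not depend on the library size. At each locus 1 hairpin took nearly all counts, and the lower gene gave from 0.356% to 1.75% of the counts of its pair. On chromosome 1, plus strand, Mir30a (ENSMUSG00000065405.2, chr1:23272269-23272339) and Mir30c-2 (ENSMUSG00000065567.1, chr1:23291701-23291784) lie 19361 bases apart. Mir30c-2 lies wholly in an exon of the long noncoding RNA Gm27028, and Mir30a overlaps no other gene of the GENCODE M21 annotation. Mir30a exceeded Mir30c-2 by 56.0-fold in pup 1 (interval 45.1 to 70.4) and 97.7-fold in pup 2 (83.8 to 115), so the intervals of the pups did not overlap.

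On chromosome 4, minus strand, Mir30e (ENSMUSG00000065409.1, chr4:120772606-120772697) and Mir30c-1 (ENSMUSG00000065490.1, chr4:120769534-120769622) lie 2983 bases apart in an intron of Nfyc, which encodes a subunit of the CCAAT-binding factor NF-Y. Here the ratio was 97.0 in pup 1 (interval 80.8 to 117). It was 280 in pup 2 (239 to 330), and in both pups it was the largest ratio of the 3 loci. The pups differed 2.89-fold in this ratio (2.25 to 3.70). Mir30e was higher and Mir30c-1 lower in pup 2, so these hairpins, on the strand of Nfyc and close together, had levels that differed between the pups in opposite directions. Reads that fit both Mir30c-1 and Mir30c-2 are not in these counts, and their part in the difference was not tested.

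On chromosome 15, minus strand, Mir30d (ENSMUSG00000065437.1, chr15:68341208-68341289) and Mir30b (ENSMUSG00000065476.2, chr15:68337415-68337510) lie 3697 bases apart. Mir30d lies wholly in an exon of the long noncoding RNA Gm20732, and 16 bases of Mir30b overlap an exon of Gm26621, on the same strand. Mir30d exceeded Mir30b by 78.5-fold in pup 1 (interval 62.4 to 100) and 70.5-fold in pup 2 (62.1 to 80.4). This was the only one of the 3 loci at which the interval for the difference in ratio between the pups included no difference (0.898, interval 0.680 to 1.17). At the loci of Mir30a and Mir30d the mean log2 ratios were 6.21 ± 0.57 and 6.22 ± 0.11, and at that of Mir30e 7.36 ± 1.08 (SD, n = 2 each), so these means differed by little more than the spread of the last.

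**Figure D3:**
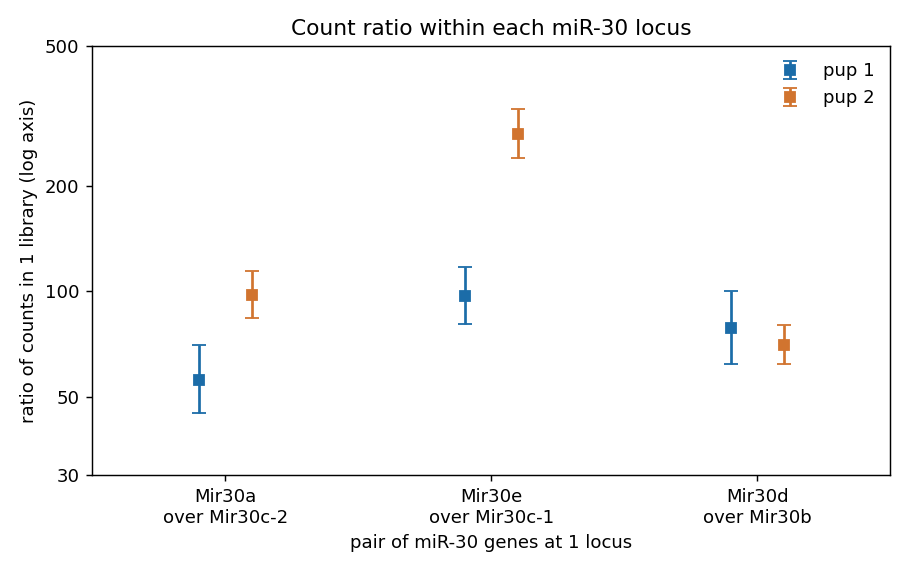
Ratio of the counts of the 2 genes of each miR-30 locus (log axis) within pup 1 and within pup 2, with exact 95% counting intervals as bars. In pup 1 and pup 2 the ratio is 97.0 and 280 for Mir30e over Mir30c-1, 56.0 and 97.7 for Mir30a over Mir30c-2, and 78.5 and 70.5 for Mir30d over Mir30b.

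The change at the Mir30e locus was set beside all adjacent miRNA genes on 1 strand, at most 10 kb apart and each at a mean of 10 CPM or more. This gave 98 pairs, which share genes in clusters, and the comparison was chosen after the values were seen. The ratio within a pair changed at least 2-fold between the pups in 3 of 98, or 3.06%, with a median absolute change of 0.40 on the log2 scale. Mir30e over Mir30c-1 had the largest change of the 98 pairs, 1.53 on the log2 scale. The other pairs past 2-fold were Mir99a over Mirlet7c-1 with 1.29 and Mir100 over Mirlet7a-2 with 1.06. In each of these 3 pairs the lower gene is one whose 5p sequence is known at 2 or more loci, which was seen after the fact and not tested. The median absolute change was 0.42 in the 18 pairs that hold a Mir30c gene or a gene of a list of miRNAs named as encoded at 2 loci. It was 0.40 in the 80 other pairs, and the numbers past 2-fold were 3 of 18 and 0 of 80. The split is not exact, as the list holds Mir329, with 1 gene row here, and the other pairs include both Mir450 copies. Mir30d over Mir30b, at -0.15, was among the less changed pairs (79th of 98). The pair Mir30a and Mir30c-2 is too far apart to enter. Its change was 0.80, the 12th of 107 pairs when genes up to 50 kb apart were allowed.

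**Figure D4:**
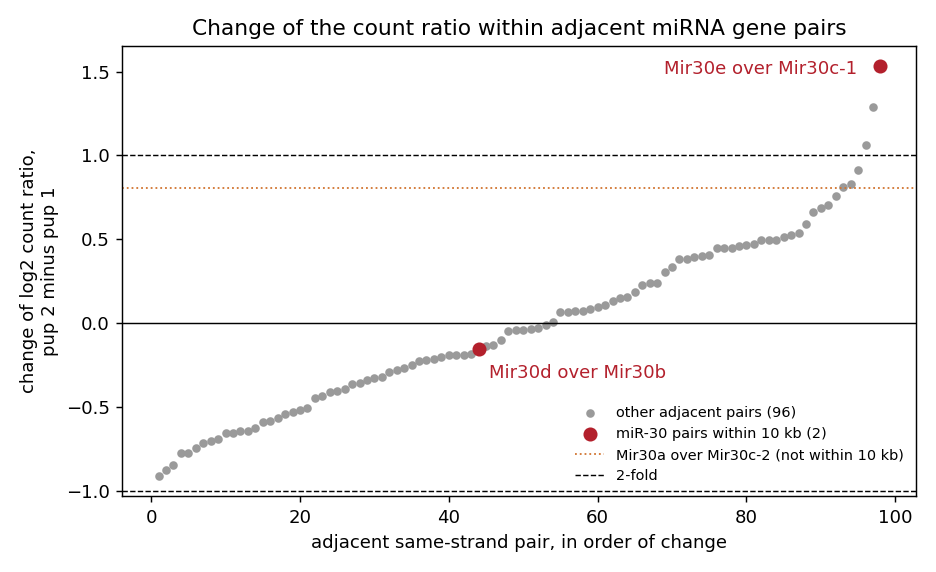
Change between the pups of the log2 count ratio within 98 adjacent same-strand miRNA gene pairs, in order of change, with the ratio taken as the gene of higher mean over the other. Mir30e over Mir30c-1 lies at 1.53, above all other pairs and the 2-fold line, Mir30d over Mir30b lies at -0.15, and the dotted line at 0.80 marks Mir30a over Mir30c-2.

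The 2 copies of miR-30c were not far from even in their counts. Reads that fit both copies are left out here, so the shares below do not measure the full output of each copy. Mir30c-1 made up 58.3% of the counts of both copies in pup 1, with an interval above an even share (51.1 to 65.2). Its share was 48.8% in pup 2 (43.2 to 54.4). These intervals overlapped, which does not show that the shares were equal. The log2 ratio of Mir30c-1 over Mir30c-2 changed by -0.56 from pup 1 to pup 2, and no interval was computed for this change. The copy with fewer counts thus held 41.7% and 48.8%. In 18 other pairs of copies from the list of miRNAs whose mature sequence, on the 5p or the 3p arm, is known at 2 loci, the copy with fewer counts held a median of 14.5%, from 0.560% for Mir181b to 47.1% for Mir138, and 1 pair was more even than miR-30c by the mean of the pups. The list is not complete. Of 3 pairs outside it that were added after the values were seen, Mir125b was more even, with 47.1% and 48.1% for the copy with fewer counts, and Mir450 (36.4% and 43.1%) and Mir196a (6.57% and 6.15%) were less even. Of the 30 genes of that list at a mean of 10 CPM or more, 1 passed 2-fold upward in pup 2 and 1 downward, with a median log2 ratio of 0.11, against 3.52% and 1.76% of all 284 genes. Of these 30 genes, 17 had the higher level in pup 2 and 13 the lower.

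Such copies were compared with a partner at the same locus, as Mir30c-1 with Mir30e. Partners were miRNA genes outside the list, at a mean of 10 CPM or more, within 10 kb on the same strand. Such a partner was found for 18 genes of the list, of which 17 had counts in both pups. The partner was higher for 14 of these 17, with a median log2 ratio of 2.79. The genes of the list did not have to reach 10 CPM, and their counts leave out reads that fit more than 1 copy. The comparison thus favours a higher partner. The mean log2 ratio of 7.36 at the Mir30e locus was reached by 1 of them, Mir19b-1 beside Mir20a with 7.48, where Mir19b-1 had only 7 and 15 counts. The next were Mir29b-2 beside Mir29c with 6.97, which rests on 1 and 3 counts of Mir29b-2, Mir199a-2 beside Mir214 with 6.89, Mirlet7c-1 beside Mir99a with 6.11 and Mirlet7a-1 beside Mirlet7d with 6.02. Mir30b is not on that list, and the RefSeq table lacks it, so whether its sequence occurs at other loci was not checked. The mean log2 ratio of Mir30d over Mir30b, 6.22, was close to the 6.21 of Mir30a over Mir30c-2. In the single pups these loci differed, with 78.5-fold against 56.0-fold in pup 1 and 70.5-fold against 97.7-fold in pup 2. Over the 98 adjacent pairs the median log2 ratio of the higher over the lower gene was 2.33, and 6 pairs, that of Mir30d and Mir30b included, had a ratio as large as its 6.22.

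No miR-30 gene had a count in the opposite-strand column in either library, out of 39345 and 104740 opposite-strand counts over all genes. The unstranded counts of the 6 genes were the same as the same-strand counts.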

How the data were processed

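Small RNA was sequenced from 2 libraries, 1 per newborn pup, which form 1 group. The values deposited by the authors are raw read counts for each miRNA gene, in 1 table per library, not scaled or pooled. The notes deposited with each sample name the assembly mm10 and the annotation GENCODE M4. For the aligner and the trimming, the tool is not given in the sources used here. Same-strand counts were used, and rows that name no gene were left out of library sizes: multi-mapped reads (34.9% and 32.2%), unmapped reads (10.6% and 11.2%) and reads outside genes (4.03% and 3.86%).

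Identifiers, version dropped, were matched to GENCODE M21 for symbols and coordinates (1894 of 1973 rows). 1 of the 6 members, Mir30a, had another version there. CPM used the same-strand totals. Log2 ratios had a prior of 1 CPM and were taken over genes whose mean was 10 CPM or more, with 2-fold as the threshold. Shares have Clopper-Pearson intervals, levels Poisson intervals, ratios of rates exact conditional intervals, and the change of a ratio between pups the exact conditional interval of an odds ratio. The code was tested on simulated data. All 6 members were named, with the nearest gene of each in level; other genes were named where a comparison turned on them. The members, lists and tests were chosen with earlier results of these data known. The list of 2-locus miRNAs was drawn up by name and 39 of its 41 genes were in the tables. Alternatives were edgeR 4.0.16 TMM scaling, DESeq2 1.42.0 size factors, a prior of 5 CPM, no filter, the unstranded column, all reads as library size, counts per hairpin base and each pup alone. Python 3.11.15 and scipy 1.17.1 were used.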

Additional observations from a re-analysis of the deposited data

How the results depend on the processing

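Each member kept its direction between the pups and its side of the 2-fold threshold under TMM scaling, DESeq2 size factors, a prior of 5 CPM, no filter and the unstranded column, with Mir30c-1 between -1.11 and -1.01 on the log2 scale, nearest to the threshold under TMM. TMM moved log2 ratios up by 0.11. Without a filter on low values, 85 of 635 genes passed 2-fold in place of 15 of 284, 42 higher and 43 lower. With all reads as library size the family level was 10998 CPM in place of 21288 CPM, and from a single pup it was 19351 or 23224 CPM. Per hairpin base the log2 ratio of Mir30d over Mir30b was 6.45 in place of 6.22. From a single pup the within-locus log2 ratios ran from 5.81 to 6.61 for Mir30a, 6.60 to 8.13 for Mir30e and 6.14 to 6.30 for Mir30d. Adjacent pairs past 2-fold numbered 4 of 107 with distances up to 50 kb, 0 of 82 after 2-locus genes were removed (which takes out the 3 pairs by construction and makes other genes adjacent) and 3 of 80 where each mean was 50 CPM or more, settings chosen after seeing the data. No paired analysis was possible because the labels give 1 group. Depth limits Mir30b, Mir30c-1 and Mir30c-2 most, with 73 to 116 counts in pup 1.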
